A study of Homo sapiens with 5 samples.

Results

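The smooth muscle contractile genes described here are 10 genes of 24544 gene symbols measured: ACTA2, TAGLN, DES, CNN1, MYL9, TPM1, TPM2, ACTG2, CALD1 and MYH11. Each had a single row of its own in all 5 expression tables. They were chosen by their measured FPKM in the SALL4A and empty vector libraries, because ACTA2, TAGLN and DES were higher in cells with SALL4A while matrix genes of the same mesenchymal programme were lower, so the SALL4A values below describe the choice and carry no test. SALL4 is a zinc finger transcription factor of embryonic tissue that some liver tumours express, and SALL4A and SALL4B are its long and short splice isoforms. RNA was sequenced from SNU-387 cells with an empty vector, with SALL4A or with SALL4B, and from SNU-398 cells that were untreated or carried a SALL4 knockdown directed at both isoforms. Both are established lines of human hepatocellular carcinoma, a liver cell cancer. Each of the 5 groups held 1 library, so no value has replicate error, no p-value was computed and every difference is between a pair of libraries. The labels give lentiviral transduction and puromycin selection for all samples, yet the source label of the SNU-398 control calls the cells untreated, and no mock-transduced SNU-398 control was analysed here.

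Smooth muscle contracts when myosin filaments pull on actin filaments, after myosin light chain kinase has phosphorylated the regulatory light chain. Tropomyosin lies along actin and stabilises it, calponin and caldesmon bind the thin filament and restrain myosin, and desmin filaments tie the contractile units to the cell's edge. Many of these genes carry CArG boxes, the sites of serum response factor (SRF), which works with myocardin in smooth muscle and with the actin-sensing MRTF proteins in other cells. In liver, activated stellate cells and myofibroblasts are known for smooth muscle actin, and cultured tumour cells can express part of the set.

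The knockdown library was the shallowest, at an estimated 7.24 M (mega) fragments, and the SALL4A library the deepest, at 24.2 M. SALL4 itself stood at 0.117, 23.1 and 10.4 FPKM in the empty vector, SALL4A and SALL4B libraries, and at 39.4 and 7.45 FPKM in the untreated and knockdown ones. FPKM is the number of sequenced fragments scaled by transcript length and by library size. The labels' cell line entry reads SNU-387 even for samples titled SNU-398, but libraries titled alike correlated at 0.932 to 0.977 on log2(FPKM + 1) and the others at 0.829 to 0.857. Small RNA symbols took 1.74% of summed FPKM in untreated and 39.3% in knockdown SNU-398 cells, and 8.49% to 14.4% in SNU-387.

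The knockdown library also held a low level of transcripts typical of SNU-387. Expression by the knockdown cells and carry-over of material or reads from another library cannot be told apart here, so low values in that library may not be the cells' own. Of 92 symbols, small RNAs aside, at 20 FPKM or more in all SNU-387 libraries and under 0.5 FPKM in untreated SNU-398, 87 were higher after knockdown than in untreated cells. Their knockdown level was a median of 1.16% of the level in the SALL4A library (quartiles 0.913% and 1.78%), and their median FPKM was 0.0624 in untreated and 0.571 in knockdown cells. CNN1 and MYL9 belong to these 92 symbols. This set was drawn up after the values were seen, and its part in the knockdown results was not tested. Picking symbols by a low untreated value favours a higher value in the knockdown library, so the 87 of 92 is partly preset. TAGLN, CNN1, MYL9 and the counts are given below also after subtracting that median share of the SALL4A library. For CNN1 and MYL9 the outcome is largely preset, because they are in the set that gave the share.

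Most of the set was abundant in SNU-387, where ACTG2, DES and MYH11 were low, and fewer members reached 1 FPKM in SNU-398. With empty vector the order of levels per length was TPM1 (304 FPKM), CALD1 (243), MYL9 (93.9), TPM2 (71.1), ACTA2 (56.9), TAGLN (37.2), CNN1 (29.2), ACTG2 (3.73), DES (2.33) and MYH11 (0.22). In untreated SNU-398 cells TPM2 led at 141 FPKM, followed by TPM1 (70.5), CALD1 (31.1), ACTA2 (22.6) and TAGLN (3.12), while the other 5 genes lay at 0.243 FPKM or less. Without replicates, neighbours in either order cannot be said to differ. TPM2 was the member whose lowest SNU-398 value, 108 FPKM, lay above its highest SNU-387 value, 78.1 FPKM. For ACTA2, TAGLN, DES, CNN1, MYL9, TPM1, ACTG2 and CALD1 all SNU-387 values lay above both SNU-398 values. The sources used here do not say whether the libraries were normalised together, so levels across the lines are set side by side only. In such bulk samples fewer expressing cells and less RNA per cell cannot be told apart.

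**Figure D1:**
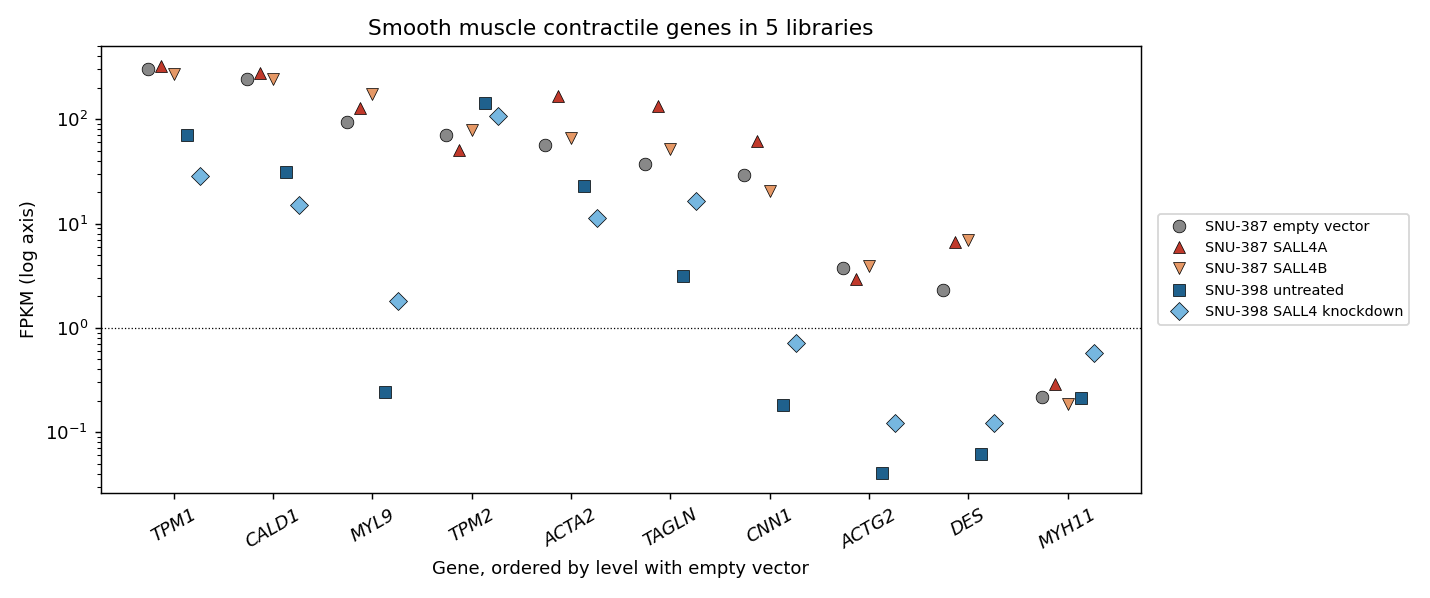
FPKM of the 10 contractile genes on a log axis, 1 point per library, with genes ordered by their level with empty vector and a dotted line at 1 FPKM. TPM2 is highest in SNU-398, MYH11 stays under 1 FPKM in all 5 libraries, and ACTA2, TAGLN and CNN1 are highest with SALL4A.

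ACTA2 encodes smooth muscle alpha-actin and lies on chromosome 10 (88935074 to 88991339, minus strand, GRCh38). Its levels were 56.9, 168 and 65.4 FPKM in the empty vector, SALL4A and SALL4B libraries. The SALL4A library stood alone, 2.95 times the empty vector level, while SALL4B was at 1.15 times. In SNU-398 ACTA2 was lower after knockdown, at 11.2 against 22.6 FPKM. The log2 ratio of (FPKM + 1) was -0.95, just short of the 2-fold mark. ACTG2, the enteric gamma-actin of visceral smooth muscle (chromosome 2, 73892314 to 73919865), did not share that pattern. It measured 3.73, 2.96 and 3.91 FPKM in the 3 SNU-387 libraries, taken here and below in the order empty vector, SALL4A, SALL4B. The untreated and knockdown SNU-398 libraries gave 0.041 and 0.122 FPKM. Both of these correspond to about 1.8 fragments, so no change could be seen there.

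The sequences before the starts of ACTA2, ACTG2 and CNN1 are shown because ACTA2 and CNN1 were higher with SALL4A and ACTG2 was not. They are the 250 bases before a start site in RefSeq's GRCh38.p14 table, 5′ to 3′ on the gene's strand. Of the 10 members, 6 had an entry in that table, with 11 windows in all, and ACTA2 has another start at which none of the searched motifs was found. Entries for TAGLN, DES, MYL9 and MYH11 were not found. Capitals mark CArG boxes with at most 1 mismatch and, once in ACTA2, the TEAD site CATTCC read on the other strand.
ACTA2, chr10:88952774-88953023, minus strand: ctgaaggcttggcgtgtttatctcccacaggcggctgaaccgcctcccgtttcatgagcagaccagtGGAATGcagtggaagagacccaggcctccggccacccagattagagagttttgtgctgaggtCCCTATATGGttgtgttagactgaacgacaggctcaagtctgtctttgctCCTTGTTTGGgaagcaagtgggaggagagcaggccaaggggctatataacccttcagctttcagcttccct
ACTG2, chr2:73892758-73893007, plus strand: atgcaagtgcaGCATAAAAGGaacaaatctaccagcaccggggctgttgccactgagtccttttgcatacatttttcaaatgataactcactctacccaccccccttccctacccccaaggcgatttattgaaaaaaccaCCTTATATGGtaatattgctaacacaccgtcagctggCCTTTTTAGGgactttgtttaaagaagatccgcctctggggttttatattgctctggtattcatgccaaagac
CNN1, chr19:11538601-11538850, plus strand: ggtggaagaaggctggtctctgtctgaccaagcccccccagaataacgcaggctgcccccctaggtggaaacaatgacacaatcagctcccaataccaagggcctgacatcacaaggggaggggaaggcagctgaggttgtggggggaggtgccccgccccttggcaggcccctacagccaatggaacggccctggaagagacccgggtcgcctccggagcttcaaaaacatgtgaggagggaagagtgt

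ACTG2 held 2 exact CArG boxes, CCTTATATGG at 110 to 101 and CCTTTTTAGG at 73 to 64 bases before the start. Exact boxes were found in 1.29% of all 35116 promoter windows of 300 bases (250 before and 50 after a start, both strands) and in no other member. ACTA2 held a pair of boxes with 1 mismatch each, CCCTATATGG at 121 to 112 and CCTTGTTTGG at 71 to 62 bases before the start. Allowing 1 mismatch, which was added after the sequences were seen and includes exact boxes, 18.9% of all windows held one, as did 4 of the 11 member windows, in ACTA2, ACTG2 and CALD1. The TEAD site was in 14.0% of all windows and in 3 of 11 member windows, at 183 to 178 bases before the start in ACTA2 and in a pair of CALD1 windows. The CNN1 window held neither motif. These are matches of letters in short windows, and the windows of 4 members, TAGLN and DES among them, were not searched.

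The tropomyosins ran against each other across the lines. TPM1 (chromosome 15, 63042632 to 63071915) gave 304, 321 and 270 FPKM, so the 3 SNU-387 libraries lay within 1.19-fold. In SNU-398 it was lower after knockdown, 28.3 against 70.5 FPKM (log2 ratio -1.29). TPM2 (chromosome 9, 35681992 to 35690121) gave 71.1, 50.7 and 78.1 FPKM, lowest in the library where ACTA2 was highest. Knockdown cells had 108 FPKM and untreated cells 141 FPKM (log2 ratio -0.39). Values per gene do not separate the many muscle and non-muscle isoforms of either tropomyosin.

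The genes of proteins that bind the thin filament showed 2 patterns in SNU-387. TAGLN, which encodes the actin-bundling protein transgelin or SM22-alpha (chromosome 11, 117199321 to 117204782), gave 37.2, 133 and 51.9 FPKM and was highest with SALL4A. CNN1, or calponin (chromosome 19, 11538717 to 11550323), gave 29.2, 61.4 and 20.5 FPKM, highest with SALL4A and lowest with SALL4B. CALD1, or caldesmon (chromosome 7, 134744252 to 134970728), was nearly level at 243, 278 and 243 FPKM.

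In SNU-398 these 3 genes parted. TAGLN was at 16.3 FPKM after knockdown against 3.12 FPKM in untreated cells, about 256 and 148 fragments. Its log2 ratio of 2.07 was the largest of any member in the 4 comparisons with a pseudocount of 1, but with one of 0.1 MYL9 was higher in the same comparison (2.47 against 2.35). After subtracting the share of the SALL4A library its ratio was 1.94, and the difference between the SNU-398 libraries equalled 9.95% of its SALL4A level. CALD1 differed the other way, at 15.2 against 31.1 FPKM (log2 ratio -0.99). CNN1 was at 0.181 and 0.719 FPKM, about 6.45 and 8.50 fragments, with a log2 ratio of 0.54. After the subtraction the ratio was -0.23, which is largely preset, as the knockdown level was 1.17% of the SALL4A level. Of these 3 genes, TAGLN RNA was at least 2-fold higher in both the library with added SALL4A and the library with lowered SALL4, each against its own control. Before the subtraction CNN1 was higher in both as well, though under 1 FPKM in SNU-398.

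On the myosin side, the light chain was abundant in SNU-387 and the smooth muscle heavy chain was near 0. MYL9, the regulatory light chain that myosin light chain kinase phosphorylates (chromosome 20, 36541484 to 36551447), gave 93.9, 126 and 175 FPKM and was highest with SALL4B. Its log2 ratio over empty vector was 0.89 with SALL4B and 0.42 with SALL4A. In SNU-398 it was near 0 in untreated cells, with 0.243 FPKM or about 15 fragments. The knockdown library had 1.80 FPKM, about 36.7 fragments, for a log2 ratio of 1.17. MYL9 passed the 1 FPKM filter there only through the knockdown library. After the subtraction its ratio was 0.10, again largely preset, as its knockdown level was 1.42% of its SALL4A level.

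MYH11, the smooth muscle myosin heavy chain and the most restricted marker of mature smooth muscle (chromosome 16, 15703172 to 15857033), was at 0.22, 0.288, 0.187, 0.213 and 0.577 FPKM from empty vector to knockdown. NDE1, which overlaps it on the opposite strand and shares 765 exonic bases with it, was at 12.9 to 21.7 FPKM, and whether the authors counted by strand is not stated. MYH11 never reached 1 FPKM and entered no count. Myocardin (MYOCD), named after its values were seen, stood at 0.0754 FPKM in the empty vector library and 0.0263 FPKM or less elsewhere. The label smooth muscle contractile genes therefore names a gene set, and the defining heavy chain and coactivator of smooth muscle cells were near 0 in these cells.

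DES encodes desmin, the muscle intermediate filament protein (chromosome 2, 219418377 to 219426739). It gave 2.33, 6.66 and 6.95 FPKM, about 63.8, 362 and 143 fragments. Unlike ACTA2, TAGLN and CNN1, DES was about equally high with both isoforms. In SNU-398 it was at 0.062 and 0.123 FPKM, about 3 and 2 fragments. Vimentin (VIM), the mesenchymal intermediate filament gene, gave 47.4, 33.1 and 170 FPKM, so DES made up 4.92%, 20.1% and 4.08% of the VIM level.

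Counted at 2-fold on the log2(FPKM + 1) scale, 4 of 10 members were higher with SALL4A than with empty vector and 0 lower. They were TAGLN (1.81), ACTA2 (1.54), DES (1.20) and CNN1 (1.05), where 2.27% of the 12441 genes that reached 1 FPKM in at least one of the pair were at least 2-fold higher and 3.24% lower. That comparison chose the members, so nothing is read from the count. MYL9 (0.42), CALD1 (0.19), TPM1 (0.08), ACTG2 (-0.26) and TPM2 (-0.48) stayed within 2-fold. The median of all 10 was 0.31, beside 0.01 over the genes that passed the filter. CNN1 was at 0.96 and DES at 0.67 with a pseudocount of 5, under the 2-fold mark.

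With SALL4B, 1 of 10 members was at least 2-fold higher, DES at 1.26, and 0 were lower, where 3.13% of 12459 genes were higher and 4.86% lower. The median over the members was 0.09, beside 0.03 over the genes tested. TAGLN was at 0.47 and ACTA2 at 0.20, and CNN1 had the lowest ratio of the set at -0.49. With a pseudocount of 5 DES was at 0.71 and the count was 0. Both isoform comparisons use the same empty vector library, so they are not independent of each other. The values of that library also helped to choose the members, so the SALL4B comparison is not independent of the choice.

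Set directly against SALL4B, SALL4A gave higher CNN1 (log2 ratio 1.53), ACTA2 (1.35) and TAGLN (1.34). These 3 of 10 members were at least 2-fold higher and 0 were lower, where 3.82% of 12424 genes were higher and 3.39% lower. DES was at -0.05, MYL9 at -0.47 and TPM2 at -0.61. This comparison reuses the SALL4A library whose values chose the members, so it adds no support to them. SALL4 itself was at 23.1 FPKM with SALL4A and 10.4 FPKM with SALL4B, so isoform and SALL4 level cannot be told apart. The members' median was 0.16, beside -0.00 over all genes tested. Higher genes were 53.0% of all genes past 2-fold, and 63.7% and 72.1% with a common total with and without small RNAs, which put the median gene at 0.088 and 0.169.

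**Figure D2:**
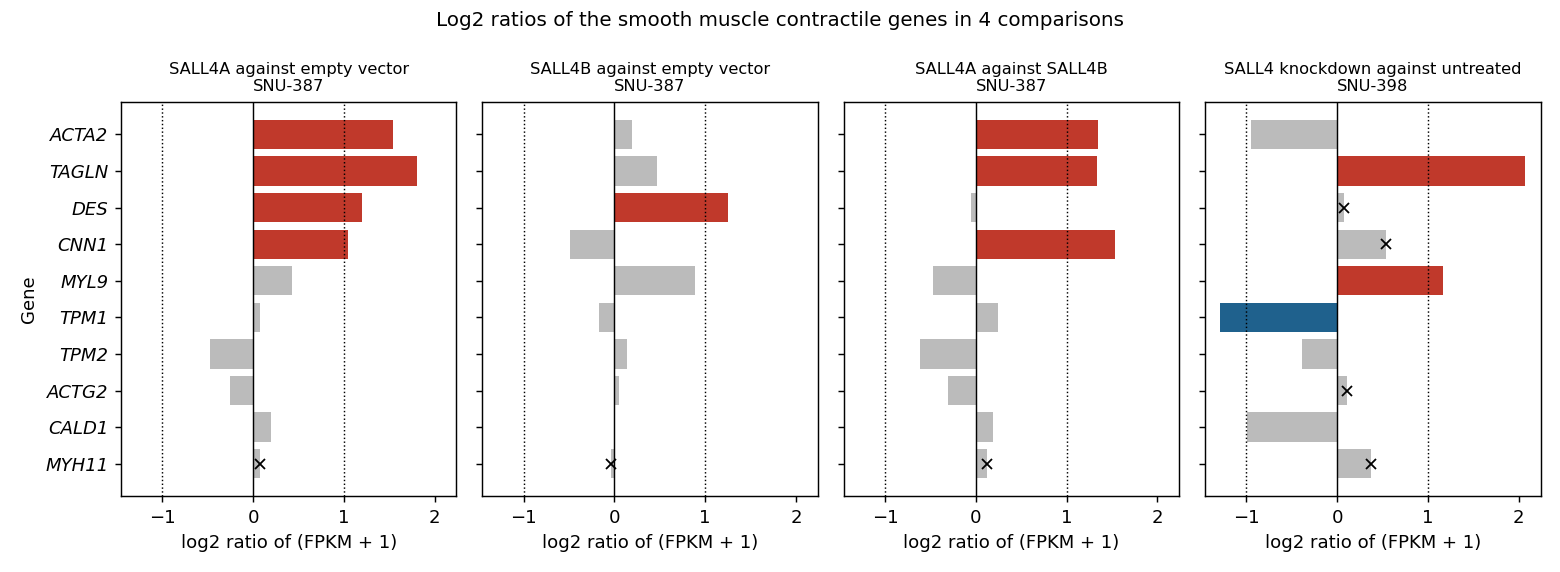
Log2 ratios of (FPKM + 1) for the 10 genes in the 4 comparisons, with dotted lines at 2-fold, red bars at least 2-fold higher, blue bars at least 2-fold lower, grey bars within 2-fold and crosses for genes under 1 FPKM in both libraries. ACTA2, TAGLN and CNN1 pass 2-fold with SALL4A against both other SNU-387 libraries, while in SNU-398 TAGLN (2.07) and TPM1 (-1.29) lie on opposite sides.

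After SALL4 knockdown in SNU-398, 2 of 10 members were at least 2-fold higher and 1 was lower, where 9.73% of 13716 genes were higher and 8.13% lower. Before the subtraction, this is the comparison that shares no library with the choice of members. With counts this small and a background near 1 in 10 each way, the members' counts are not set apart from other genes. The 2 higher genes were TAGLN and MYL9, the lower 1 was TPM1, and only 6 of 10 members passed the filter. CALD1 (-0.99) and ACTA2 (-0.95) lay just inside 2-fold. After the subtraction described above, TAGLN alone was counted higher and TPM1 (-1.48), CALD1 (-1.31) and ACTA2 (-1.20) lower, and the median over the members went from 0.09 to -0.13. The subtraction brings in the SALL4A library, whose values chose the members, and takes most FPKM from members high there. The downward shift is built in, no all-gene share was computed after it, and nothing is read from it. With a common total, which put the median gene at -0.62 in a library where small RNAs took 39.3% of FPKM, higher genes were 11.5% of those past 2-fold in place of 54.5%. MYL9 was then at 0.89 and no longer counted.

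Ratios inside a library do not depend on scaling between libraries, so the members other than CALD1, for which no counterpart was set, were also expressed as a percentage of non-muscle counterparts, paired after the values were seen. ACTA2 was 9.02% of beta-actin (ACTB) in the empty vector library, 24.7% with SALL4A and 10.9% with SALL4B. TAGLN was 11.2%, 34.1% and 14.8% of TAGLN2 in the same order. CNN1 was 8.97%, 17.4% and 5.54% of the sum of CNN2 and CNN3. The SALL4A library was the highest of the 3 for these genes, but its values chose the members, so this is a description. TPM2 was lowest there, at 8.93% of TPM3 plus TPM4, against 11.2% with empty vector and 11.3% with SALL4B. ACTG2 was too, at 0.456% of ACTG1 against 0.689% and 0.581%. MYL9 was 13.5%, 29.05% and 30.7% of MYL12A plus MYL12B, so relative to the non-muscle light chains it was higher with both isoforms, by 2.16-fold and 2.28-fold. MYL12A itself was at 328, 209 and 266 FPKM and MYL12B at 369, 226 and 303 FPKM.

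In SNU-398 the same ratios differed in direction between TAGLN and ACTA2 or TPM1. TAGLN went from 5.44% to 41.2% of TAGLN2 with knockdown, while ACTA2 went from 6.53% to 4.50% of ACTB and TPM1 from 23.5% to 13.2% of TPM3 plus TPM4. TPM2 was 47.1% and 50.3% of TPM3 plus TPM4, against 8.93% to 11.3% in SNU-387. ACTG2 was at most 0.689% of ACTG1 and MYH11 at most 0.759% of the non-muscle heavy chain MYH9 in all 5 libraries.

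**Figure D3:**
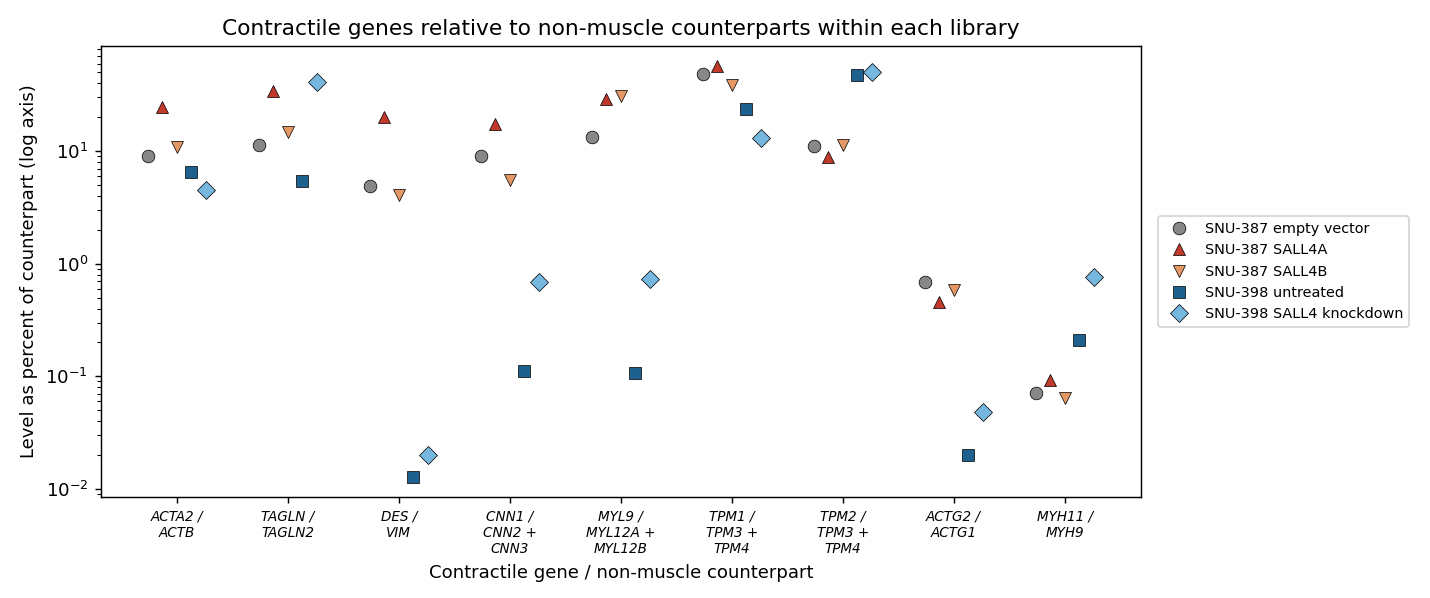
Level of the contractile genes, CALD1 left out, as a percentage of its non-muscle counterpart or counterparts in the same library, on a log axis, 1 point per library. ACTA2, TAGLN and CNN1 are highest with SALL4A among the SNU-387 libraries, and TAGLN in the knockdown library reaches 41.2% of TAGLN2.

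The non-muscle counterparts, which did not enter the choice, were counted in the same way. Counts of this and the lists below are to be read beside the all-gene shares given above for each comparison. Of 15 genes, 0 were at least 2-fold higher or lower with SALL4A (median 0.07), and 1, VIM, was higher with SALL4B (1.82, median 0.08). The cytoplasmic myosin heavy chain MYH10 had the highest ratio with SALL4A, 100.2 against 51.6 FPKM (0.95), and MYL12B was lowest at -0.71. ACTB was at 0.10 and the essential light chain MYL6 at -0.45. Between the isoforms 0 were higher with SALL4A and 1, VIM (-2.33), was lower (median -0.14), with CNN2 at 0.35. With knockdown 0 of 15 were higher and 2 lower, MYH14 at -1.25 and MYH10 at -1.06, and the median was -0.41.

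Partners of the contractile filaments had a median above 0 with SALL4A. Of 26 genes, 2 were at least 2-fold higher and 0 lower, and the median over all 26 was 0.34. CRYAB, a small heat shock protein that binds desmin, gave 4.29, 15.03 and 17.1 FPKM, with ratios of 1.60 and 1.77, high with both isoforms as DES was. In SNU-398 it had 0.0541 FPKM in the untreated library and was listed at 0 in the knockdown one. The LIM protein FHL2 was at 5.55, 18.1 and 6.51 FPKM in the SNU-387 libraries, high with SALL4A alone as ACTA2 was. Filamin A (FLNA, 0.09) and alpha-actinin (ACTN1, 0.12), the most abundant partners, were nearly level.

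With SALL4B 3 partners were higher and 1 lower, the lower being supervillin (SVIL), which links actin to membranes (39.5 to 10.1 FPKM, -1.87, against -0.62 with SALL4A). The median was 0.17. Between the isoforms 3 partners were higher with SALL4A and 0 lower (median 0.13), FHL2 at 1.35 and CSRP2, a LIM protein of smooth muscle, at -0.998. With knockdown 3 were higher and 3 lower (median 0.01), with dystrophin (DMD) at 1.30 and FHL1 at -1.17. As 9.73% of all genes were higher and 8.13% lower there, these counts do not set the partners apart.

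Genes that control contraction stayed within 2-fold in all 3 SNU-387 comparisons. Of these 21 genes, 0 were higher or lower, with medians of 0.00 for SALL4A, 0.00 for SALL4B and -0.03 between them. Calmodulin 2 (CALM2) gave 484, 314 and 508 FPKM, ratios of -0.62 and 0.07. RHOA was at -0.16 and 0.00, and the phosphatase subunits PPP1CB and PPP1R12B had the highest ratios, 0.40 with SALL4A and 0.69 with SALL4B. In SNU-398, 3 were higher and 1 lower after knockdown (median 0.10). The kinase of the myosin light chain, MYLK, went from 7.90 to 2.30 FPKM (-1.43), and PRKG1, the cGMP-dependent kinase that relaxes smooth muscle, from 4.95 to 20.4 FPKM (1.85). RHOA was at -0.96 and CALM2 at 0.16.

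Of 27 regulators, among them SRF, its coactivators and the TGF-beta pathway, 0 were at least 2-fold higher or lower with SALL4A (median 0.12). SMAD3 had the highest ratio at 0.64 and the receptor TGFBR2 the lowest at -0.85, while TGFB2 was at 0.53 and TGFBR1 at 0.09. SRF, named after its values were seen, gave 17.8, 24.0 and 17.6 FPKM in SNU-387 and 19.6 and 13.15 FPKM in SNU-398. With SALL4B 1 was higher and 3 were lower (median -0.10), the mesenchymal factor FOXF1 going from 9.76 to 0.609 FPKM (-2.74), with KLF5 at 1.08. TGFB2 was at 0.75 and TGFBR1 at -0.56. FOXF1 kept 9.40 FPKM with SALL4A, a ratio of 2.69 between the isoforms, where 3 regulators were higher with SALL4A and 0 lower (median 0.26) and KLF4 was at -0.80. After knockdown 2 were higher and 3 lower (median -0.47), with TGFBR2 lower, at 0.607 against 6.14 FPKM (-2.15), and SMAD4 at 0.16.

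Matrix genes are the other arm of the programme by which the members were picked. Of 24 matrix genes, 14 were at least 2-fold lower with SALL4A and 14 with SALL4B, with 1 and 2 higher, and medians of -1.17 and -1.21. These values share the empty vector library and chose the members, and they are given as a description. Summed over genes, the 10 members came to 842, 1148 and 915 FPKM, while the matrix genes were 4295, 1921 and 1983 FPKM. The members thus amounted to 19.6%, 59.7% and 46.1% of the matrix sum. The matrix sum was lower with both isoforms, and ACTA2, TAGLN and CNN1 were high with SALL4A alone. Fibronectin (FN1) was at 918, 247 and 234 FPKM and periostin (POSTN), a secreted matrix protein, at 173, 6.38 and 1.61 FPKM. Between the isoforms the matrix genes were split, with 6 higher with SALL4A and 2 lower (median 0.20). COL6A3, a collagen VI chain, had the highest ratio, at 115 FPKM with SALL4A and 7.07 FPKM with SALL4B (3.84). The proteoglycan gene DCN had the lowest, at 2.73 and 32.5 FPKM (-3.16). Fibulin 1 (FBLN1) went against the matrix trend with 1.30 and 1.26.

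In SNU-398 matrix genes had a median of 0.05 with knockdown, with 2 of 24 higher and 2 lower. SPARC was at 5.23 FPKM in the knockdown library against 0.0885 FPKM (2.52), and DCN, the proteoglycan decorin, at 4.09 against 17.5 FPKM (-1.87). Both libraries were lower in matrix than SNU-387, with sums of 374 and 425 FPKM, and the members were 72.0% and 42.9% of that sum. SPARC, like MYL9, is among the 92 symbols abundant in SNU-387.

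**Figure D4:**
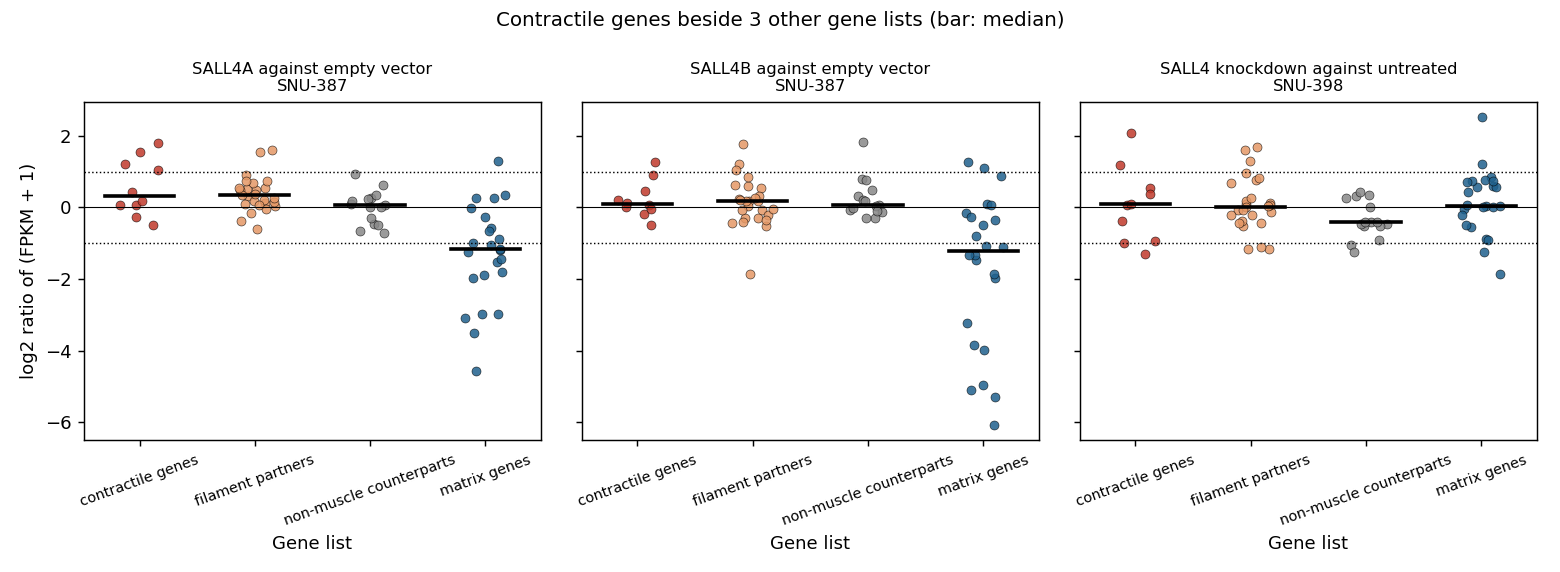
Log2 ratios of (FPKM + 1) for the 10 contractile genes, 26 filament partners, 15 non-muscle counterparts and 24 matrix genes, 1 point per gene with no filter, with black bars at the median and dotted lines at 2-fold. Matrix genes have medians of -1.17 and -1.21 with SALL4A and SALL4B, where the contractile genes have 0.31 and 0.09.

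Striated muscle genes were mostly near 0. Of 25 striated muscle filament genes, 2 to 5 reached 1 FPKM in a library. With SALL4A 0 were at least 2-fold higher and 1 lower, the light chain MYL1 (7.22 to 1.22 FPKM, -1.89), and with SALL4B 2 were higher, MYL4 (1.60) and TNNC1 (1.54), and 1 lower, again MYL1 (-1.19). MYL4 and TNNC1 were named after their values were seen. Between the isoforms 0 were higher with SALL4A and 2 lower. With knockdown 0 differed by 2-fold, and TNNT1 was at 64.1 and 43.0 FPKM. The median over all 25 was 0.00 in all 4 comparisons, since most of them lay near 0, and over the 3 to 5 genes that passed the filter it was 0.17, 0.76, -0.86 and 0.09.

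Of 10 pericyte and vascular mural markers, 0 were higher and 2 lower with SALL4A (median 0.00), 0 and 3 with SALL4B (-0.21), 1 and 0 between the isoforms (0.00) and 2 and 0 with knockdown (0.17). MCAM gave 80.4, 88.98 and 128 FPKM in SNU-387. It is 1 of the 2 counted higher with knockdown, at 1.42 against 0.123 FPKM, and like MYL9 it is among the 92 symbols abundant in SNU-387. The channel subunit ABCC9 was at -1.98 with SALL4A and 0.94 with knockdown, RGS5, a pericyte regulator of G proteins, at 0.32 and 0.29, and NOTCH3 at -0.55 with knockdown.

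Markers of other cell types were read in the same libraries. Summed endothelial markers (8 genes) came to 2.85, 14.3 and 1.86 FPKM in SNU-387 and 1.68 and 1.96 FPKM in SNU-398, and 5 of 8 reached 1 FPKM with SALL4A against 1 in each other library, among them CDH5 (5.06 FPKM) and KDR (3.46 FPKM), while VWF was at 0.0183 FPKM and CLDN5 at 0.102 FPKM. With SALL4A 3 of the 8, CDH5, KDR and TIE1, were at least 2-fold higher, as ACTA2, TAGLN and CNN1 were, while PECAM1 was at -0.02 and TEK at 0.55. In SNU-398 0 of the 8 differed by 2-fold. The part of these markers in the SALL4A differences was not tested. Fibroblast or stellate markers (10 genes) summed to 571, 246 and 574 FPKM in SNU-387 and 227 and 249 FPKM in SNU-398. Lumican (LUM) alone made up 263, 176 and 488 FPKM of the SNU-387 sums. With SALL4A 1 of the 10 was at least 2-fold higher and 5 lower (median -0.97), and with SALL4B 1 was higher and 4 lower (median -0.53). The higher gene was DES both times, which is a member. DCN, LUM, FAP, COL1A1 and COL3A1 are also in the matrix list, so these counts are no check separate from the choice of members. COL1A1 was at 54.9, 18.6 and 4.92 FPKM, and LRAT, a stellate cell marker, was at 0.202 FPKM or less in all 5 libraries. Smooth muscle markers (8 genes, all but LMOD1 and MYOCD members) summed to 130, 373, 150, 26.5 and 30.4 FPKM. LMOD1 was at 1.22 FPKM and MYOCD at 0 with SALL4A, so the sum mostly repeats the values that chose the members. Epithelial markers (6 genes) summed to 718, 648 and 392.3 FPKM in SNU-387 and 34.5 and 23.6 FPKM in SNU-398. They did not share a direction. KRT8 was at 350, 316 and 199 FPKM in SNU-387 and at 0.579 and 4.78 FPKM in SNU-398. EPCAM was at 2.47, 1.81 and 7.16 FPKM in SNU-387 and at 33.7 and 14.7 FPKM in SNU-398. Leukocyte markers (7 genes) summed to 10.4 to 69.6 FPKM, most of it CD68 and NCAM1. Against the liver label, hepatocyte markers (10 genes) summed to 1.28 to 41.7 FPKM, and albumin (ALB) was at 1.28 FPKM or less. Not all were low: with SALL4B, SERPINA1 was at 25.3 and APOA1 at 14.9 FPKM, against 5.78 and 0.308 with empty vector. These 2 of the 10 were at least 2-fold higher with SALL4B and 1 was lower, where 3.13% of all genes were higher and 4.86% lower. The marker genes named here were chosen after their values were seen.

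Likeness of pattern was measured over all 5 libraries. Pearson's r of log2(FPKM + 1) with ACTA2 was 0.93 for TPM1 and CALD1, 0.92 for CNN1, 0.90 for DES, 0.85 for MYL9, 0.81 for TAGLN and -0.88 for TPM2. With TAGLN it was 0.92 for CNN1 and -0.97 for TPM2. These r values rest on 5 libraries that share 2 cell lines, between which most members differ, and they are a description. Among 8097 symbols at 5 FPKM or more in some library and spanning at least 1 log2 unit, members apart, the patterns most like ACTA2 included TENM2 (r = 0.9997), NUDT19 (0.9992), ARMC1 (0.999) and LRRC58 (0.994). Those most like TAGLN were PIK3R4 (0.995), IQGAP3 (0.994), TNFAIP3 (0.993), PPP1CB (0.992) and CNEP1R1 (0.992). TENM2 was at 5.59, 21.7 and 7.26 FPKM in SNU-387 and at 1.42 and 0.205 FPKM in untreated and knockdown SNU-398 cells.

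Exact 50-base stretches were little shared between the members and other genes. Reads placed with mismatches and the members' other transcripts were not covered, so sharing of reads with paralogs was not tested. Of the distinct 50-base stretches of each member's principal transcript in GENCODE 29, 0% were found in transcripts of other genes for 8 members, 0.0993% for ACTG2 and 0.853% for MYH11, 46 of its 51 shared stretches being in MYH9. Overlap with genes on the opposite strand was larger. ACTA2 shares 380 exonic bases with FAS, which was at 2.97, 5.71 and 2.11 FPKM in SNU-387 and 13.01 and 13.98 FPKM in SNU-398, and TAGLN shares 446 with PCSK7, at 13.3 to 16.6 FPKM in all 5 libraries. Antisense genes with no row in the tables overlap ACTA2 (516 exonic bases) and TPM1 (2070 of 12876).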

How the data were processed

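Gene expression was measured by RNA-seq in 5 libraries, 1 per group, of rRNA-depleted total RNA (ScriptSeq Complete Gold kit, per the labels' protocols). The authors deposited FPKM per gene. Cufflinks and Cuffdiff, TopHat2 and SAMtools appear in the submitters' processing notes with no version, and the builds named there are GRCh38 and hg38. The sources used here do not give the annotation. Of 26032 rows, 17 named with a dash were dropped, and the values of any symbol on several rows were added up.

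Ratios were log2((FPKM + 1)/(FPKM + 1)), which understates changes of low genes. A gene was counted at 2-fold if it reached 1 FPKM in either library. List medians cover all genes with a row. Depth was estimated from the steps of low FPKM values in 1-transcript genes of at least 2 kb (GENCODE 29), of which 80.0% to 83.2% per library lay within 0.15 of a whole fragment. Fragment numbers use the principal transcript's length and are approximate.

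Members, gene lists and tests were chosen with earlier results of these data known. Named list genes were the highest and lowest ratio per comparison and the 2 most abundant, among genes reaching 5 FPKM in the pair, and those with patterns like ACTA2 and TAGLN by Pearson's r. Other genes are named as markers or counterparts, or were chosen after their values were seen. Some genes that the rule names are not reported here. The ratio functions were tested on simulated data. Coordinates are GENCODE 29 (GRCh38) and promoter sequences RefSeq (GRCh38.p14). Python 3.11.15, numpy 2.4.6, pandas 2.3.3 and matplotlib 3.10.9 were used. Alternatives were other pseudocounts, filters, scalings, row handling and a 1.5-fold threshold, plus the subtraction for the knockdown library, which was added after the data were seen.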

Additional observations from a re-analysis of the deposited data

How the results depend on the processing

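No paired analysis was possible because each group held 1 library, and for the same reason no library could be left out. The members' median ranged from 0.30 to 0.41 with SALL4A, from 0.01 to 0.10 with SALL4B, the lowest with a common total, and from 0.11 to 0.27 between the isoforms. With knockdown it was 0.56 with a pseudocount of 0.1 and 0.02 with one of 5. With a pseudocount of 5 the members at least 2-fold higher were 2 for SALL4A, 0 for SALL4B and 1 for knockdown. A 1.5-fold threshold gave 2 higher with SALL4B (DES and MYL9), 1 lower between the isoforms (TPM2) and 3 lower with knockdown. A pseudocount of 0.1 also gave 3 lower with knockdown, as ACTA2 and CALD1 passed 2-fold. Requiring 5 FPKM left 1 higher with knockdown, and a common total gave 1 higher and 4 lower. Subtracting the share of the SALL4A library, which can only lower a value, gave 1 higher and 3 lower and turned the knockdown median to -0.13. TAGLN was higher with SALL4A and with knockdown, and ACTA2 with SALL4A, by 2-fold or more under each alternative. For these alternatives the share of all genes past the threshold was not computed, so whether the members' counts differ from other genes cannot be said. The shallow knockdown library limits values under 1 FPKM most.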

Other observations

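The low level of SNU-387 transcripts in the knockdown library reached beyond the contractile genes. Keratins 8 and 18, the simple epithelial keratins, were at 0.579 and 0.034 FPKM in untreated SNU-398 and at 4.78 and 3.53 FPKM in knockdown cells, against 316 and 328 FPKM in the SALL4A library. These genes were chosen after their values were seen. As a percentage of the empty vector and SALL4B libraries, the 92 symbols had medians of 0.947% (quartiles 0.549% and 1.75%) and 1.05% (0.597% and 1.56%) in the knockdown library. The lowest of the 92 was at 0% and the highest at 6.21% of its SALL4A level. ACTG2 (4.14%) and DES (1.85%), too low in SNU-387 for that set, rested on about 2 fragments each.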
